A study of Mus musculus with 6 samples.

Results

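AP-1 is a family of dimeric transcription factors built from proteins with a basic region that touches DNA and a leucine zipper that joins a pair of partners. The genes described here are 10 of the 21960 genes in the deposited counts, taken by symbol from a list of family members. They are the Fos genes (Fos, Fosb, Fosl1 and Fosl2), the Jun genes (Jun, Junb and Jund), the stress-induced factor Atf3 and the small Maf genes Maff and Mafk. All 10 had enough reads for a test.

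The libraries come from TuBo cells, an epithelial line established from mammary carcinoma of the BALB/c-MMTV-NeuT strain, in which a mammary tumor virus promoter drives an activated form of the HER2 homolog. A first group of 3 libraries is from mock cells, labelled wt, and a second group of 3 libraries is from p140Cap cells, which carry a retroviral cDNA of the adaptor protein p140Cap, were selected with puromycin and consist of pooled single-cell clones. Both groups share the NeuT background, and the comparison asks how expression differs between p140Cap and mock cells. The study describes cloning only for p140Cap-expressing cells, so differences due to cloning and to p140Cap cannot be told apart. The GEO title and design speak of mice, whereas the sample labels speak of cell lines, and the libraries are treated here as cultured cells. No source used here states how independent the cultures behind the replicates were, so p-values measure the spread between these libraries, which may be technical.

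Library totals ranged from 33058719 to 75506562 reads in mock cells and from 13770385 to 15364850 reads in p140Cap cells, so each mock library was deeper. Levels are given as CPM, a read count scaled to the normalized library size. Srcin1, the gene that encodes p140Cap, had 15.0 ± 1.96 CPM in the mock group against 2343 ± 153 CPM in the p140Cap group (mean ± SD, n = 3 each). Epithelial markers were abundant, with a summed level of 5737 to 6056 CPM over 8 genes in mock cells and 6631 to 6817 CPM in p140Cap cells. Of 14 markers of fibroblasts, leukocytes and endothelial cells, 6 had no read in any library (Ptprc, Adgre1, Cd3e, Dcn, Lum and Kdr), and the summed level of all 14 lay between 12.4 and 13.0 CPM in mock cells and between 16.0 and 18.8 CPM in p140Cap cells. Of the 4 with enough reads for a test, Col1a1, Cd68 and Pecam1 were higher in p140Cap cells, and their part in the AP-1 values was not tested. In bulk RNA a smaller number of expressing cells and less RNA per cell cannot be told apart.

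Fos and Jun proteins pair through their zippers and bind short DNA elements, the TRE (TGACTCA) and the related CRE (TGACGTCA). Fos proteins need a Jun partner, whereas Jun proteins can also pair with each other. Growth factors, integrins and cell stress act on these genes through MAP kinases. Fos is the textbook immediate-early gene, switched on within minutes by serum through SRF and CREB, and its mRNA is short-lived. Fosl1 (Fra-1) and Fosl2 (Fra-2) respond later and are associated with invasion in breast cancer cells. Small Maf proteins lack an activation domain and pair with NRF2-like and BACH factors.

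The promoters of several AP-1 genes hold sites for AP-1 and CREB factors, through which the family acts on its own genes. RefSeq promoter windows of GRCm38.p6, the build named for these data in the submitters' notes as mm10, were matched by symbol for 9 of the 10 genes, with 11 windows in all. The window searched ran from 250 bases before to 50 bases after each start. Printed below are the 250 bases before the start, 5′ to 3′, of the gene with the largest difference (Fos), of Junb, the most abundant member, of the second of 3 annotated starts of Maff, chosen because it holds the only full CRE found, and of Jun, whose level differed little, for contrast. Capitals mark matches to TGACG (the core of the CRE), TGACGTCA, TGACATCA (the TRE variant known from Jun) and TATAAA on either strand.
Fos, chr12:85473640-85473889, plus strand: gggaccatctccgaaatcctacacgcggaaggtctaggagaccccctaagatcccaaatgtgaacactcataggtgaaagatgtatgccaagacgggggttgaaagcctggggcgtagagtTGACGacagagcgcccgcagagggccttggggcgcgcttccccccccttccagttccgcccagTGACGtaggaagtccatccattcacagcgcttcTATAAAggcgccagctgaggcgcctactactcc
Junb, chr8:84978749-84978998, minus strand: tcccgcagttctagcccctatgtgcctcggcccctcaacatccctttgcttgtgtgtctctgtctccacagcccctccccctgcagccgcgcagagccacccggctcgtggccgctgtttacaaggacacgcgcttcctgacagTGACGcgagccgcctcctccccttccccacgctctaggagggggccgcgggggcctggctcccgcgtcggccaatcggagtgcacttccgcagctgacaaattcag
Maff, chr15:79347270-79347519, plus strand: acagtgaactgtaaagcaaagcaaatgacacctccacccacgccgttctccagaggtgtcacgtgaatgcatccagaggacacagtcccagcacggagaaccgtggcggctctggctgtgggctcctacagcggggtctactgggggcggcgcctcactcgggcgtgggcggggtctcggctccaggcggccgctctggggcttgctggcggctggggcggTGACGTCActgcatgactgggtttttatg
Jun, chr4:95052223-95052472, minus strand: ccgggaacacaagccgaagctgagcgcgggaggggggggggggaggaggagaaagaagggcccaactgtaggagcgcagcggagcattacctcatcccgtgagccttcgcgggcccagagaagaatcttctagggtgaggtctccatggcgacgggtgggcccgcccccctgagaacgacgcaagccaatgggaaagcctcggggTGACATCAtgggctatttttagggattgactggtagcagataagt

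In the Fos window TGACG stood at -129 to -125 and at -66 to -62 from the start, with TATAAA at -33 to -28. The window of the first Maff start held no match to any motif searched. That of the second held a full CRE at -29 to -22, and its complement also reads TGACG, so these matches overlap. The Jun window held TGACATCA at -45 to -38, as did the window of the third Maff start at the same distance, and the Junb window held TGACG at -106 to -102 and, past the printed stretch, TATAAA at 1 to 6 after the start. TGACG was found in 7 of the 11 windows, from 6 of the 9 genes (Fos, Fosb, Junb, Atf3, Maff and Mafk), and in 20.8% of all 32851 promoter windows of the same length. It thus occurred both in genes whose level differed and in Atf3 and Mafk, which were not called. The full CRE was in 1.79% of all windows, TGACATCA in 3.62% and TATAAA in 13.6%. TGACTCA, present in 5.2% of all windows, and the CArG box bound by SRF, present in 1.63%, were found in no window of the 9 genes. These are matches of letters only, and elements outside the windows were not searched.

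AP-1 mRNA was higher in p140Cap cells for 6 of the 10 genes and lower for none. Fos rose by a factor of 2.81, Fosb 1.84, Maff 1.56, Fosl2 1.48, Junb 1.39 and Jund 1.16, while Jun, Atf3, Fosl1 and Mafk did not pass the test. The test was edgeR's quasi-likelihood test over 11800 genes, with Benjamini-Hochberg adjusted p under 0.05 as the threshold. Differences were widespread in these cells: 71.1% of all genes tested passed, 35.2% higher and 35.9% lower in p140Cap cells. The share of AP-1 genes that passed, 60%, is therefore near the background. By direction, 6 of the 10 were higher and 0 lower. Their median log2 fold change was 0.34, beside -0.0015 over all genes. For 5 members the normalized levels of the groups did not overlap, each with p140Cap above mock, and the same held for 36.3% of all genes (37.2% with p140Cap below, 73.4% in either direction). Fos alone passed with a change of at least 1 log2 unit, as did 9.97% of all genes.

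**Figure D1:**
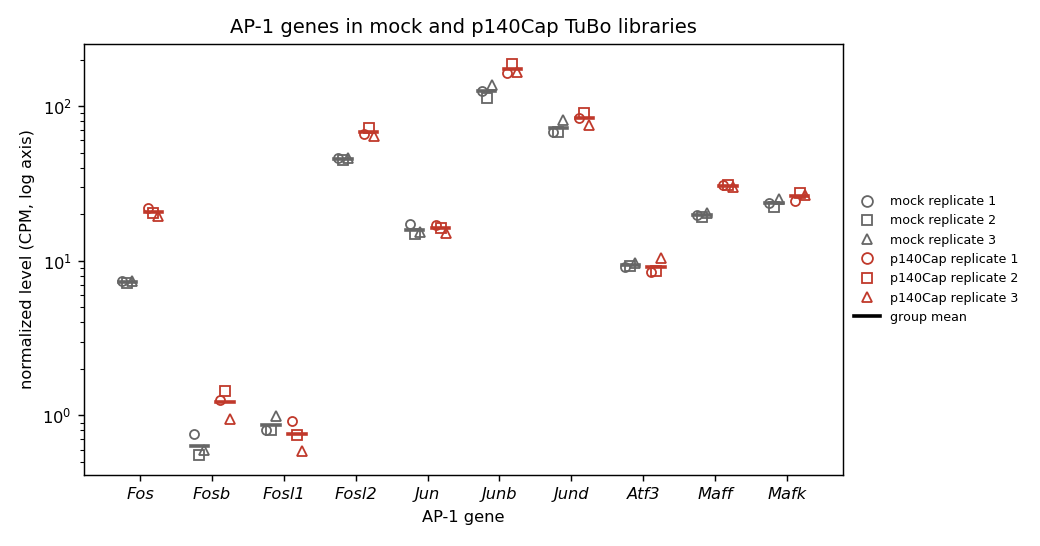
Normalized level (CPM, log axis) of each AP-1 gene in every library, with mock in grey, p140Cap in red, a symbol per replicate and a bar at the group mean. The p140Cap libraries lie above the mock libraries for Fos, Fosb, Fosl2, Junb and Maff, and the groups overlap for the other genes.

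Among the Fos genes, Fos had the largest difference. Fos (ENSMUSG00000021250; chr12:85473890-85477274 of GRCm38.p6, plus strand) drew 569, 285 and 245 reads from the mock libraries, against 333, 297 and 266 from the much smaller p140Cap libraries. After normalization it was at 7.44, 7.17 and 7.36 CPM in mock cells and at 21.9, 20.2 and 19.5 CPM in p140Cap cells. All p140Cap libraries were thus far above all mock libraries, and the replicates of each group lay close together. Its log2 difference was 1.49 with an SE of 0.08 (edgeR, adjusted p = 6.94e-11), and it stayed between 1.42 and 1.52 under all 15 alternatives. By p, Fos ranked at position 247 of the 11800 genes. No other annotated gene overlaps Fos.

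Fosl2 (ENSMUSG00000029135; chr5:32136472-32157840, plus strand), the most abundant Fos gene by reads, moved the same way with a smaller change. It was at 46.3, 44.7 and 46.2 CPM in the mock libraries and at 66.4, 72.7 and 63.8 CPM in the p140Cap libraries, with no overlap. This amounts to 0.56 log2 units with an SE of 0.06 (edgeR, adjusted p = 1.31e-07).

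Fosb (ENSMUSG00000003545; chr7:19302696-19310118, minus strand), whose protein and its short splice form also pair with Jun proteins, was a rare transcript. Its raw reads were 58, 22 and 20 in the mock group, against 19, 21 and 13 in the p140Cap group, or 0.758, 0.553 and 0.601 CPM against 1.25, 1.43 and 0.955 CPM. The p140Cap libraries were all above the mock libraries, on few reads. The estimate of 0.88 log2 units had an SE of 0.27 (edgeR, adjusted p = 0.00729). Pooled over libraries, the 53 reads in p140Cap and 100 reads in mock cells give a depth-scaled ratio of 1.82, and counting error alone puts it between 1.28 and 2.57 (exact, 95%). Without p140Cap replicate 2 the log2 fold change was 0.74 and the call was lost (adjusted p = 0.053, edgeR). Over all 15 alternatives the adjusted p (edgeR, DESeq2 or limma) lay between 0.00492 and 0.053.

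Fosl1 (ENSMUSG00000024912; chr19:5447698-5455938, plus strand) was as rare and did not follow the other Fos genes. Its raw reads were 62, 32 and 33 against 14, 11 and 8, or 0.81, 0.805 and 0.991 CPM against 0.923, 0.749 and 0.588 CPM, and the groups overlapped. Its estimate was -0.17 log2 units with an SE of 0.28 (edgeR, adjusted p = 0.61). The 95% interval ran from -0.76 to 0.42, so a difference of either sign within it is compatible with these few reads. With single libraries left out the estimate ran from -0.35 (without p140Cap replicate 1) to -0.032 (without p140Cap replicate 3), never called. With all libraries thinned to the smallest total it was -0.54 (edgeR, adjusted p = 0.174). Fosl1 lies on chromosome 19, where the other 426 tested genes had a median log2 fold change of -0.35 and 65.3% were called lower, and the part of this in the value of Fosl1 was not tested.

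**Figure D2:**
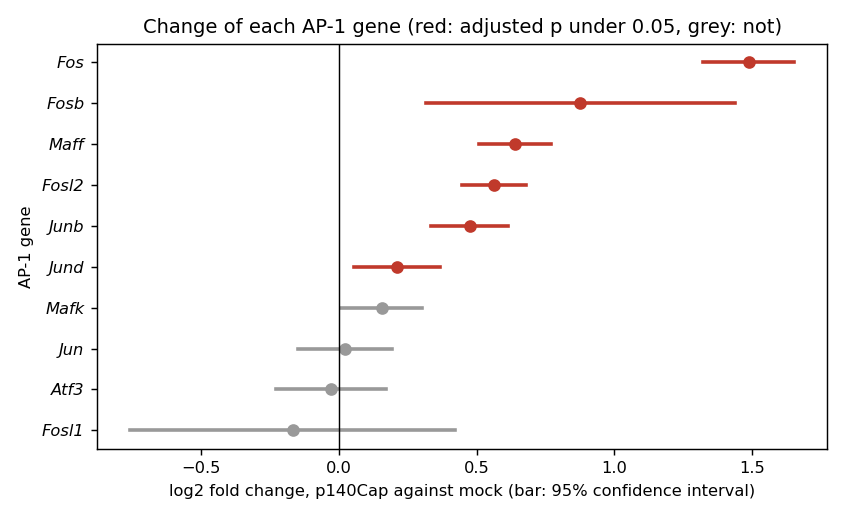
Log2 fold change of each AP-1 gene, p140Cap against mock, with its 95% confidence interval as a bar (red: adjusted p under 0.05, grey: not). Fos stands apart at 1.49, and the intervals of Jun, Atf3 and Fosl1 include 0.

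Among the Jun genes, Junb rose and Jun did not. Junb (ENSMUSG00000052837; chr8:84976909-84978748, minus strand), usually the weaker activator of the pair, was at 125, 113 and 136 CPM in the mock libraries and at 165, 189 and 166 CPM in the p140Cap libraries. The p140Cap libraries lay above the mock libraries, although the mock libraries differed among themselves more than they did for Fos. Junb differed by 0.48 log2 units with an SE of 0.07 (edgeR, adjusted p = 7.20e-06).

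Jun (ENSMUSG00000052684; chr4:95049036-95052222, minus strand), which encodes the strongest activator of the family, was at 17.2, 15.0 and 15.4 CPM in mock cells and at 17.1, 16.3 and 15.1 CPM in p140Cap cells. These ranges coincide nearly whole. Jun differed by 0.02 log2 units with an SE of 0.08 (edgeR, adjusted p = 0.812), and the upper end of its 95% interval, -0.15 to 0.19, lies below the estimates for Junb and Fosl2.

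Jund (ENSMUSG00000071076; chr8:70697739-70700616, plus strand), a member that most cells express at all times, was at 67.8, 68.2 and 81.3 CPM in mock cells and at 84.4, 90.7 and 75.4 CPM in p140Cap cells. The groups overlapped, since mock replicate 3 was above p140Cap replicate 3. The difference of 0.21 log2 units with an SE of 0.07 (edgeR, adjusted p = 0.0183) passed the test, yet the call was lost without mock replicate 1 (log2 fold change 0.16, adjusted p = 0.101), without mock replicate 2 (0.17, adjusted p = 0.0575) and without p140Cap replicate 2 (0.14, adjusted p = 0.0993, edgeR in each case), within a range of 0.000761 to 0.101 over the 15 alternatives.

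Within each family, the share of each member in the family's level was compared between the groups. Shares of a family sum to the whole, so a higher share of 1 member lowers those of the others whatever their own level, as for Fosl2, whose level was higher and whose share was lower in p140Cap cells. Shares were computed per library from reads per kb of exon, so that genes of different length could be set side by side. Fos made up 38.8%, 38.8% and 38.3% of the Fos family in mock cells and 56.9%, 53.1% and 55.8% in p140Cap cells. Fosl2 made up 54.8 ± 0.2% in mock against 41.2 ± 2.09% in p140Cap cells (SD, n = 3 each), and Fosl1, on few reads, 5.31 ± 0.581% against 2.33 ± 0.418%. Fosb was at 1.27 ± 0.196% and 1.22 ± 0.194%, with the groups overlapping. In the Jun family, Junb was at 51.9 ± 1.12% in mock and 56.9 ± 1.5% in p140Cap cells, Jund at 43.1 ± 1.52% and 39.1 ± 1.34%, and Jun at 4.96 ± 0.567% and 3.98 ± 0.291%. Except for Fosb, the groups of 3 libraries did not overlap in any of these shares, and each gave p = 0.1 in a two-sided exact permutation test, the smallest p that 3 against 3 libraries allow (0.113 after adjustment over the 9 comparisons). Summed over the family, the Fos genes were at 8.03 ± 0.183 CPM per kb in mock cells and 15.8 ± 0.812 in p140Cap cells, a ratio of 1.97. The Jun genes were at 101 ± 9.12 and 128 ± 9.77, a ratio of 1.27.

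The ratios between paralogs are free of the normalization between libraries. The log2 ratio of Fosl1 to Fosl2 was -3.48, -3.44 and -3.19 in mock cells and -3.81, -4.25 and -4.41 in p140Cap cells. The log2 ratio of Jun to Junb was -3.28, -3.34 and -3.57 in mock cells and -3.69, -3.95 and -3.88 in p140Cap cells. Both ratios were lower in every p140Cap library (exact permutation p = 0.1 each, the smallest possible). That of Fosl1 to Fosl2 rests on 14, 11 and 8 Fosl1 reads in the p140Cap libraries. Its difference between groups was -0.78, and -1.06 with libraries thinned to the smallest total.

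**Figure D3:**
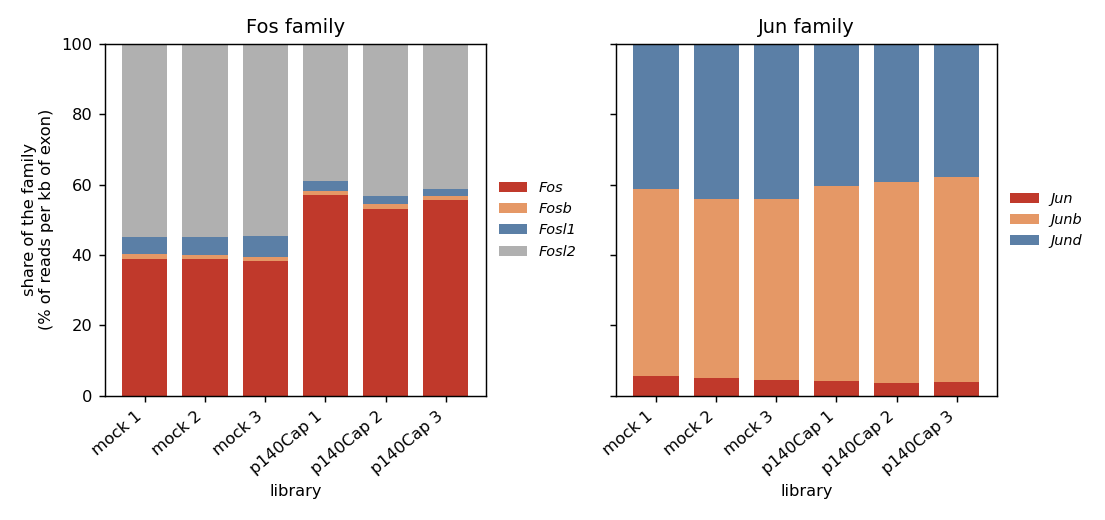
Share of each gene in the length-scaled level of its family (percent of reads per kb of exon) in each library, the Fos family on the left and the Jun family on the right. The Fos segment averages 38.6% in mock and 55.3% in p140Cap libraries, and Junb is the largest Jun segment in all 6 libraries.

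The choice of exon length sets the size of the gap between Fos and Fosl2. With the union of exons, Fos was well above Fosl2 in p140Cap cells, whereas with the longest transcript Fos and Fosl2 were close to equal there (48.3 ± 2.05% and 48.1 ± 2.13%) after 32.5 ± 0.239% and 61.6 ± 0.193% in mock cells. The difference in the share of Fos between groups hardly changed, at 16.6 percentage points with the former and 15.8 with the latter.

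Levels of the 10 genes spanned a wide range, and the order was partly different in the 2 groups. In mock cells, in CPM per kb of exon, Junb (52.4 ± 4.89) and Jund (43.5 ± 4.61) led, followed by Maff (6.18 ± 0.187), Jun (4.97 ± 0.365), Fosl2 (4.4 ± 0.087), Mafk (4.2 ± 0.238), Atf3 (3.83 ± 0.11), Fos (3.1 ± 0.0588), Fosl1 (0.427 ± 0.0522) and Fosb (0.102 ± 0.0172), each as SD with n = 3. Junb and Jund overlapped between libraries there, as did Fosl2 and Mafk. In p140Cap cells, Junb (72.7 ± 5.59), Jund (50.1 ± 4.63) and Maff (9.63 ± 0.212) still led, and Fos, at 8.72 ± 0.526, moved from position 8 to position 4 of the 10 genes, with either measure of length (by the longest transcript Fos and Fosl2 were at 9.73 and 9.69). Fosl2 (6.5 ± 0.441), Jun (5.07 ± 0.307), Mafk (4.67 ± 0.277), Atf3 (3.75 ± 0.429), Fosl1 (0.37 ± 0.0824) and Fosb (0.194 ± 0.0385) followed, and of these Jun and Mafk overlapped.

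Atf3, Maff and Mafk, which join AP-1 and related dimers, differed among themselves as well. Maff (ENSMUSG00000042622; chr15:79346621-79359078, plus strand) was at 19.7, 19.1 and 20.3 CPM in mock cells and at 31.0, 31.1 and 29.9 CPM in p140Cap cells. The replicates were tight and the groups far apart. Maff differed by 0.64 log2 units with an SE of 0.06 (edgeR, adjusted p = 9.90e-08). Mafk (ENSMUSG00000018143; chr5:139791536-139802653, plus strand), its close relative, was at 23.6, 22.3 and 24.9 CPM in mock cells and at 24.5, 27.5 and 26.7 CPM in p140Cap cells. The groups overlapped, and the difference of 0.15 log2 units with an SE of 0.07 (edgeR, adjusted p = 0.0552) missed the threshold. The call was gained under 3 of the 15 alternatives, within a range of adjusted p from 0.026 to 0.193.

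Atf3 (ENSMUSG00000026628; chr1:191170296-191183333, minus strand), a CREB-type factor that cell stress induces and that often represses, was at 9.12, 9.25 and 9.64 CPM in mock cells and at 8.5, 8.58 and 10.4 CPM in p140Cap cells. P140Cap replicate 3 was the highest library and the other p140Cap libraries the lowest. Atf3 differed by -0.03 log2 units with an SE of 0.09 (edgeR, adjusted p = 0.791), with a 95% interval of -0.23 to 0.17.

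Annotated genes on the other strand overlap all members but Fos and Fosb, and no source used here states if counting took strand into account. Of these, Prdx2 across from Junb was at 373 ± 7.24 and 393 ± 18 CPM in mock and p140Cap cells, and Ccdc85b across from Fosl1 was at 6.94 ± 0.723 and 6.26 ± 0.2 CPM, neither of them called (edgeR, adjusted p = 0.182 and 0.26). Tmem184a across from Mafk was higher in p140Cap cells, at 61.5 ± 5.09 against 40.5 ± 2.0 CPM (SD, n = 3 each; adjusted p = 2.45e-07, edgeR). The part of such reads in the member values was not tested.

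**Figure D4:**
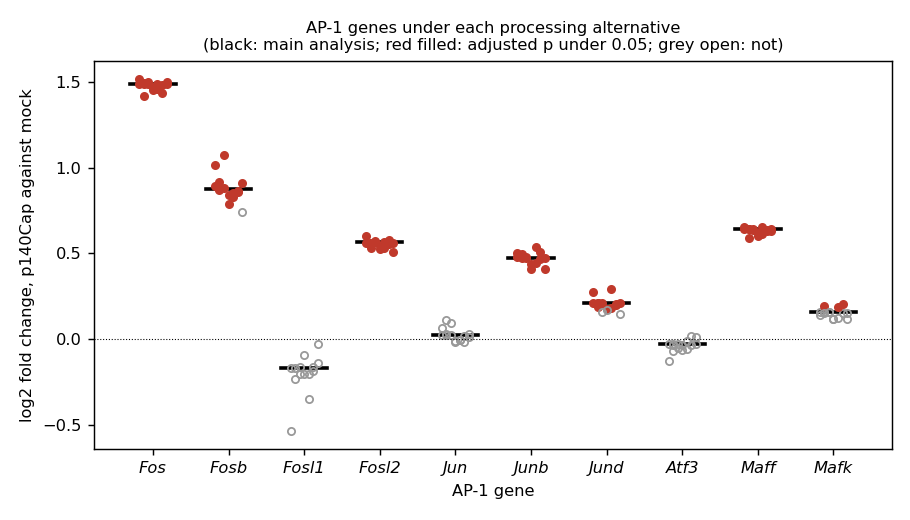
Log2 fold change of each AP-1 gene, p140Cap against mock, in the main analysis (black bar) and under each processing alternative (points, red filled where adjusted p was under 0.05 and grey open where not). Fos, Fosl2, Junb and Maff keep their call throughout, while Fosb, Jund and Mafk change sides of the threshold in 1, 3 and 3 alternatives.

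Other immediate-early genes were mostly higher as well. Of 21 such genes outside AP-1, 17 were tested, and 11 were called higher and 3 lower, beside 35.2% and 35.9% of all genes (edgeR, adjusted p under 0.05). Their median log2 fold change was 0.34. Egr1, a zinc finger factor that SRF and its cofactors control together with Fos, was at 37.7, 35.5 and 36.5 CPM in mock cells and at 88.5, 89.2 and 85.3 CPM in p140Cap cells. Egr1 differed by 1.26 log2 units with an SE of 0.05 (edgeR, adjusted p = 3.86e-12). Arc, another SRF-dependent early gene, differed by 1.40 with an SE of 0.18 (edgeR, adjusted p = 3.83e-06) at a low level. Egr2 (0.77), Ier3 (0.90), Btg2 (1.05) and Klf10 (0.67) also rose. The exceptions were Ctgf, Ier5 and Ier2. Ctgf, a matrix protein gene under SRF and YAP control, went from 2.04 ± 0.0934 to 0.366 ± 0.0629 CPM between mock and p140Cap cells (SD, n = 3 each). This is a log2 difference of -2.45 with an SE of 0.27 (edgeR, adjusted p = 4.08e-07) that rests on 16 reads in p140Cap cells. Its relative Cyr61, at -0.099, was not called.

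Of SRF and its cofactors, 1 of 6 was higher and 1 lower, a share called of 33.3% beside 71.1% of all genes. Srf itself was lower in p140Cap cells, at 60.4, 55.3 and 68.1 CPM in mock and 42.4, 48.4 and 42.7 CPM in p140Cap libraries (log2 difference -0.46 with an SE of 0.07; edgeR, adjusted p = 3.86e-05), and the cofactor gene Mkl2 was slightly higher (0.18, edgeR, adjusted p = 0.0064). Elk1, Elk3, Elk4 and Mkl1 were not called. The count of higher genes here was 2 without mock replicate 3 and with libraries thinned to the smallest total.

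Of 24 MAP kinase cascade genes, 23 were tested, with 10 higher and 6 lower (edgeR) and a median of 0.06. The share called, 69.6%, is near the 71.1% of all genes. Mapk3, which encodes ERK1, rose from 142 ± 4.84 to 243 ± 10.8 CPM (SD, n = 3 libraries each), or by 0.78 log2 units with an SE of 0.05 (edgeR, adjusted p = 6.57e-10). Map3k1, a kinase upstream of JNK and ERK, had a log2 fold change of 0.80, and Map2k6, an activator of p38, of 1.63 on few reads. Mapk8, which encodes the Jun kinase JNK1, fell by 0.40 on the log2 scale, and Mapk14 (p38) fell by 0.32.

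Of 19 other leucine zipper partners, 18 were in the counts and 14 were tested, with 8 higher and 2 lower (edgeR) and a median log2 fold change of 0.15. The share called, 71.4%, is again near the background of 71.1%. Nfe2l3, a cap'n'collar factor that binds DNA with small Maf proteins, had the largest difference, at 1.12 ± 0.117 and 4.5 ± 0.667 CPM in mock and p140Cap cells (SD, n = 3 each), or 1.97 log2 units with an SE of 0.17 (edgeR, adjusted p = 2.27e-08). Bach2, a repressor that also pairs with small Maf proteins, rose by 1.05 log2 units, and the large Maf gene Maf by 1.57 on 80 mock and 69 p140Cap reads. Nfe2l2 (NRF2) was not called (-0.05), and neither was Bach1 (0.09). Atf4, the amino acid response factor, fell by 0.80, and Jdp2, a repressor that pairs with Jun, fell by 0.22. Ddit3 (CHOP) rose by 0.81. Without p140Cap replicate 2, the count of lower partners was 1.

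Of 22 genes widely used as AP-1 targets, 21 were in the counts and only 11 had enough reads for a test, with 7 higher and 3 lower (edgeR), beside 35.2% and 35.9% of all genes, and a median of 0.35. The collagenase and stromelysin genes Mmp1b, Mmp3, Mmp10 and Mmp13 had at most 5 reads over all libraries. Mmp9, a gelatinase gene, and Ivl, an epidermal envelope gene, were also too low for the test, with 27 and 28 reads over the mock libraries and 0 reads each over the shallower p140Cap libraries. Among tested genes, Cd44 (0.49), Vim (0.35) and Hbegf (0.38) rose, and Ccnd1, at 0.02, was not called. The genes that fell were the urokinase receptor Plaur, at 19.0, 20.2 and 19.7 CPM in mock and 6.99, 5.86 and 7.42 CPM in p140Cap libraries (log2 difference -1.54 with an SE of 0.09; edgeR, adjusted p = 2.88e-10), its ligand urokinase Plau (-0.83, edgeR, adjusted p = 2.28e-06) and Tgfb1, a growth factor gene at 1.23 ± 0.22 against 0.0929 ± 0.0808 CPM (SD, n = 3 each) on 4 reads in p140Cap cells. With no filter on low counts, 5 targets were called lower.

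Of 11 genes that control the turnover of AP-1 mRNA or protein, 5 were higher and 5 lower (edgeR), with a median of -0.014, and all genes were split about as evenly (35.2% and 35.9%). Elavl1 (HuR), which stabilizes AU-rich mRNAs such as that of Fos, fell by 0.47 log2 units with an SE of 0.05 (edgeR, adjusted p = 1.71e-07), and Hnrnpd (AUF1), which binds the same class of mRNAs, fell by 0.41. Rfwd2 (COP1), a ubiquitin ligase for Jun, fell by 0.41. The decay factors Zfp36l1 and Zfp36l2 rose by 0.32 and 0.39, as did their relative Zfp36 (0.33), counted with the immediate-early genes.

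**Figure D5:**
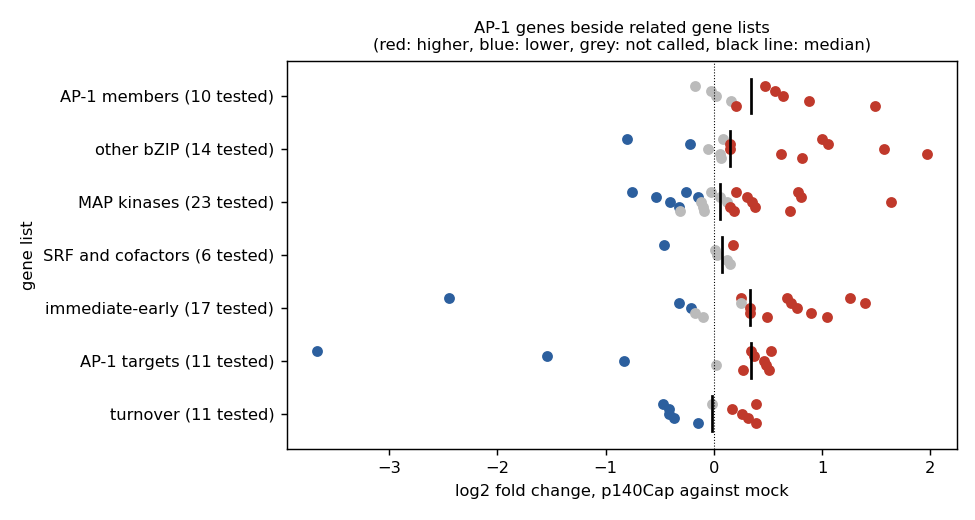
Log2 fold change, p140Cap against mock, of the tested genes of each list (a point per gene, red: higher, blue: lower, grey: not called, black line: median). The AP-1 genes have 6 points called higher and none called lower, and the turnover genes have 5 of each.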

How the data were processed

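RNA-Seq of TuBo cells (3 mock and 3 p140Cap libraries) was made by the authors from poly(A)-selected TruSeq libraries, stranded by the study's methods, on an Illumina NextSeq. Values deposited by the authors are raw counts of reads for each gene in each library, whole and not normalized. The submitters' processing notes list STAR 2.5, RSEM and mm10, without roles, whereas the study's data statement names GRCm39. Neither the annotation release nor the strand setting of the counting is stated there.

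Counts were analysed in R 4.3.3 with edgeR 4.0.16 (TMM factors, filterByExpr by group, quasi-likelihood test, Benjamini-Hochberg over all 11800 genes tested, threshold 0.05). SE is the absolute log2 fold change over the square root of F. The common biological coefficient of variation was 4.57%. The code was tested on simulated counts. Depth limits precision for genes below about 1 CPM, and counting intervals cover counting error only. Exon lengths and overlaps came from GENCODE M39 by Ensembl ID (98.6% of genes matched). Positions came from RefSeq GRCm38.p6 by Ensembl ID, else by symbol or an unambiguous synonym (97.1% matched), and promoters by symbol. No library was a copy of another (mean chi-square per gene of 1.75 to 10.7 between replicates, where sampling noise gives about 1).

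The AP-1 genes and the lists were chosen with earlier results of these data known. Named were all members, Srcin1 and, from each list at most 3 called genes, those of greatest absolute log2 fold change at a mean log2 CPM of at least 0 (Nfe2l3, Bach2, Map2k6, Map3k1, Mapk3, Srf, Mkl2, Ctgf, Arc, Egr1, Plaur, Plau, Elavl1, Hnrnpd and Rfwd2); some genes that this rule names are not reported here. Other list genes, and the genes across from members, were named after their values were seen. Alternatives were RLE, upper quartile and no scaling factors, no filter, at least 10 reads in every library, DESeq2 1.42.0, limma-voom (limma 3.58.1), thinning to the smallest total, leaving out each library, a replicate block and, for shares, transcript length.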

Additional observations from a re-analysis of the deposited data

How the results depend on the processing

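The 6 AP-1 genes called higher became 4 to 7 with each library left out and 6 or 7 otherwise, and none was called lower under any of the 15 alternatives. Calls over all genes lay between 7851 and 8716, and those over the related lists between 58 and 63 beside 62. Fos, Fosl2, Junb and Maff kept their call under all 15. Jun, not called in any, had a negative log2 fold change with total reads as the scale (-0.014), without a filter (-0.0078) and with single libraries left out (-0.019 to 0.093, below 0 without mock replicate 2 or 3 or p140Cap replicate 1). Atf3, likewise never called, turned to 0.019 and 0.011 without p140Cap replicate 1 or 2 (range with single libraries left out -0.13 to 0.019). Fosl1 was not tested with at least 10 reads in every library, and with all libraries thinned to the smallest total its log2 fold change was -0.54 (adjusted p = 0.174, edgeR). The share of Fosl1 in its family, lower by 2.98 percentage points in p140Cap cells, differed by -2.37 points with transcript length and by -3.76 points after thinning. Samples share replicate numbers between groups, but same-numbered samples did not deviate together (r = -0.036, -0.060 and -0.066), so the numbers were not taken as pairs. With a replicate block, 6 members and 8034 genes were called, and the log2 fold change of Fos was 1.49. Fosb and Fosl1, at or below 1.43 CPM, are limited by depth.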
